A study of Saccharomyces cerevisiae with 18 samples.

Results

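The purine nucleotide genes ADE and IMD were followed through wild-type (WT) yeast and 2 strains listed as living on a plasmid copy of ribosomal protein uL30. They were chosen by name and make up 10 of the 7126 genes in the deposited table: ADE1, ADE2, ADE4, ADE6, ADE8, ADE12, ADE13, ADE17, IMD2 and IMD3. The study grew 2 cultures of each strain to log phase at 30 °C and sequenced poly(A) RNA from 3 preparations of each culture, 18 libraries in all. These were the total extract, the light fraction (ribosomal subunits and monosomes) and the heavy polysome fraction (4 or more ribosomes). WT is listed in the BY background as MATa his3D200 leu2D0 lys2D0 ura3D0. R28P-30A and R28P-30B are listed with the same markers, with RPL7A replaced by URA3 and RPL7B by KMX, and with a LEU2 plasmid that holds the cDNA of RPL7A or of RPL7B behind the RPS28A promoter. The plasmid insert ends in the ADH1 terminator. The labels name both Yc medium and a synthetic minimal medium, and the recipe given for the former contains adenine.

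Libraries held 17373839 to 31525927 reads. In total extracts RPL7A was at 1616 and 1601 TPM in WT, 2201 and 2049 in the libraries labelled R28P-30A, and 4.31 and 4.59 in R28P-30B. RPL7B was at 323 and 325, 254 and 238, and 3814 and 4126 TPM in the same order. The libraries labelled R28P-30A go against their listed genotype: beside this RPL7B level, they held at most 4 URA3 reads each, whereas R28P-30B libraries held 6121 to 9364, and their snR39 and snR59 counts, from introns of RPL7A and RPL7B, were near those of WT. They are called the libraries labelled R28P-30A throughout. LEU2 reads, 1599 to 2614 per library against at most 4 in WT, set them apart from WT. The R28P-30B libraries held 11784 to 20593 LEU2 reads, although both strains are listed with a LEU2 plasmid. The methods have each culture started from 1 colony, and adjusted p-values rest on the spread between the 2 cultures of a strain.

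Yeast cells build the purine ring on phosphoribosyl pyrophosphate until inosine monophosphate (IMP) is complete, and then convert IMP to AMP or GMP. The transcription factor Bas1, with its partner Pho2, switches on most ADE genes when adenine runs short, through sites with the core TGACTC that Gcn4 can also bind. Ade4 makes the first committed step. Ade8, Ade6, Ade2, Ade1, Ade13 and Ade17 act later on the path to IMP, Ade12 and again Ade13 lead from IMP to AMP, and the IMP dehydrogenases Imd2 and Imd3 open the branch to GMP.

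The TGACTC core was searched on both strands in the 500 bases before each start codon, where the reverse strand reads GAGTCA. All 8 ADE genes held it and 5 of them held 2 copies, whereas IMD2 and IMD3 held none. Over 6005 genes with a window of this length, 12.6% held it and 1.43% held at least 2. The copy nearest to each start codon is printed from the R64 genome (NCBI RefSeq) on the strand of the gene, with the core in capitals and 10 bases on either side, because these 8 ADE genes share it and IMD2 and IMD3 lack it. Of related genes, ADE5,7 held 2 copies, ADE3 and GUA1 1 each, and ADE16 and IMD4 0. The windows are at chrXIII:867433-867458 (ADE4, minus strand), chrIV:1289011-1289036 (ADE8, minus), chrVII:616226-616251 (ADE6, minus), chrXV:566329-566354 (ADE2, minus), chrI:169148-169173 (ADE1, plus), chrXII:844056-844081 (ADE13, plus), chrXIII:509442-509467 (ADE17, minus) and chrXIV:234181-234206 (ADE12, plus).
ADE4: cccgatgtatTGACTCttcctgaccg
ADE8: tcgttgctagTGACTCtgacctgttt
ADE6: caaccgttccTGACTCtttcctgctg
ADE2: actaagtgatTGACTCttgctgacct
ADE1: cgagtcagtcTGACTCttgcgagaga
ADE13: tccgcgagcaGAGTCAaacttcaaac
ADE17: agaaatgaatTGACTCctctcataac
ADE12: ccttttcattGAGTCAcagattaaca
In 6 of the 8 the core ran in the same direction as the gene, and in ADE12 and ADE13 it ran in the opposite direction. A match to these letters is a description of the window, not a measured site.

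In total extracts of R28P-30B, 5 of the 10 genes differed from WT (4 by edgeR and 4 by DESeq2, both without ADE4). ADE12 rose, while ADE2, ADE4, ADE17 and IMD3 fell, to between 0.724 and 0.856 times WT. Levels are TPM (reads over coding length, scaled to the same sum in every library), and differences were tested on log2(TPM + 1) with limma, at a Benjamini-Hochberg adjusted p under 0.05 over 5686 genes. Among all genes tested 10.7% were higher and 13.5% lower, against 1 higher and 4 lower of the 10, and the median log2 difference was -0.14 for the 10 genes and -0.05 for all. Centred on the median gene of each library, 55.0% of the calls over all genes were higher, against 44.2% without centring.

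ADE12 encodes adenylosuccinate synthase, the first enzyme from IMP to AMP, and lies at chromosome XIV 234413 to 235714 (R64, as are all positions here). It was at 153 and 152 TPM in the WT cultures, 178 and 174 in the libraries labelled R28P-30A, and 241 and 244 in R28P-30B. The strains did not overlap, and R28P-30B was the highest. The increase over WT was 1.59-fold (log2 0.67, SE 0.06, limma adjusted p = 6.96e-08). R28P-30B also exceeded the libraries labelled R28P-30A, by log2 0.46 (SE 0.06, adjusted p = 2.19e-05). Both calls held in all 16 alternative analyses with a p-value.

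ADE17 encodes the main AICAR transformylase and IMP cyclohydrolase, the last steps to IMP, and lies at chromosome XIII 507502 to 509280. It was at 321 and 358 TPM in WT, 322 and 296 in the libraries labelled R28P-30A, and 241 and 250 in R28P-30B, so that both R28P-30B cultures were below the other 4. The difference from WT was log2 -0.47 (SE 0.07, limma adjusted p = 3.20e-05). Against the libraries labelled R28P-30A it was -0.33 (SE 0.07, adjusted p = 0.00248).

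ADE2 encodes AIR carboxylase, whose loss turns colonies red, and lies at chromosome XV 564476 to 566191. It was at 175 and 178 TPM in WT, 180 and 177 in the libraries labelled R28P-30A, and 141 and 143 in R28P-30B. Only the R28P-30B pair stood apart from the rest. The difference was log2 -0.31 (SE 0.06, limma adjusted p = 0.000855) against WT and -0.33 (SE 0.06, adjusted p = 0.00101) against the libraries labelled R28P-30A.

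IMD3 encodes an IMP dehydrogenase (chromosome XII 1002557 to 1004128). It was at 292 and 306 TPM in WT, 282 and 268 in the libraries labelled R28P-30A, and 241 and 235 in R28P-30B, with both of its cultures below the other 4. The difference from WT was log2 -0.33 (SE 0.06, limma adjusted p = 0.000554). Against the libraries labelled R28P-30A it was -0.21 (SE 0.06, adjusted p = 0.0344), a call that 9 of 16 alternatives kept.

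ADE4 encodes the amidotransferase of the first step (chromosome XIII 865559 to 867091). It was at 141 and 146 TPM in WT, 139 and 130 in the libraries labelled R28P-30A, and 126 and 119.5 in R28P-30B. The difference from WT was log2 -0.22 (SE 0.07, limma adjusted p = 0.0168), and 10 of 16 alternatives called it. The call was lost with centring, with no trend, by edgeR and DESeq2, and without replicate 2 of WT or of R28P-30B. The plot of levels by culture shows how small these steps are beside the range between the genes.

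**Figure D1:**
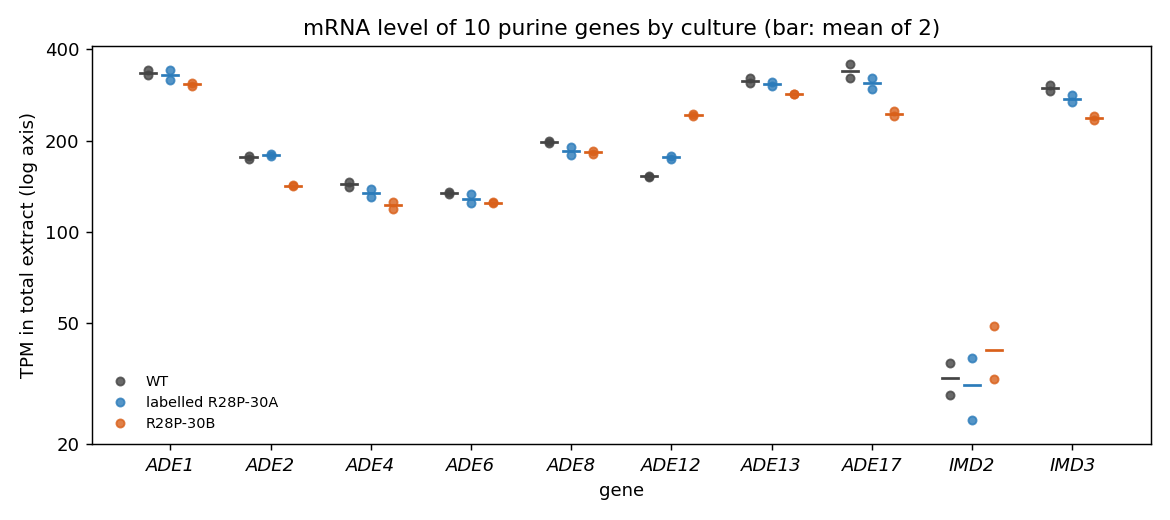
TPM in total extracts (log axis) of the 10 genes, with 1 point per culture and a bar at the mean of 2. ADE12 in R28P-30B sits at 241 and 244 TPM above both other strains, ADE2, ADE17 and IMD3 sit below them, and the IMD2 cultures of every strain overlap.

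ADE1 (SAICAR synthetase, chromosome I 169375 to 170295), ADE6 (FGAM synthetase, chromosome VII 611889 to 615965), ADE8 (GAR transformylase, chromosome IV 1288215 to 1288859) and ADE13 (adenylosuccinate lyase, chromosome XII 844282 to 845730) did not pass the test. Their differences between R28P-30B and WT lay between log2 -0.14 and -0.11, with SE of 0.06 to 0.07 and limma adjusted p of 0.0968 to 0.251. In each of the 4 both R28P-30B cultures were below both WT cultures, an order that 2 cultures against 2 can take without a difference. Its share over all genes was not counted, and the median of all genes was also below WT, at log2 -0.05. Mean levels in WT were 335 ± 7.86 TPM for ADE1, 135 ± 1.35 for ADE6, 198 ± 1.87 for ADE8 and 315 ± 8.68 for ADE13 (SD, n = 2). In RNA from whole cultures, fewer cells that express a gene and less RNA per cell cannot be told apart.

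IMD2, the IMP dehydrogenase that cells induce when guanine nucleotides run low, was the lowest of the 10 and varied between cultures of one strain (chromosome VIII 554396 to 555967). It was at 29.1 and 37.0 TPM in WT, 38.5 and 24.1 in the libraries labelled R28P-30A, and 32.9 and 49.1 in R28P-30B. All 3 strains overlapped. The difference between R28P-30B and WT was log2 0.28 (SE 0.16, limma adjusted p = 0.224), and it lay between 0.00 and 0.57 over the alternatives, of which 4 of 16 called it (2 strains alone, either culture labelled R28P-30A left out, or replicate 1 of R28P-30B left out). The same culture was the higher in all 3 preparations. Replicate 2 over replicate 1 was log2 0.30, 0.44 and 0.50 in the total, light and heavy libraries of WT, and 0.56, 0.59 and 0.58 in R28P-30B. In the libraries labelled R28P-30A it was -0.69, -0.19 and -0.79 in the same order, so separate libraries of a culture shared the direction.

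Between the libraries labelled R28P-30A and WT, none of the 10 genes passed the test in total extracts (0 called by limma, against 0.879% higher and 0.193% lower among all genes). At an unadjusted p under 0.05 limma had 1 gene, ADE12, DESeq2 called that gene too and edgeR called 0. Without replicate 1 of these libraries limma called IMD2 alone (adjusted p = 0.00383). Of all 61 calls, 82.0% were higher, and centred on the median gene 1 call was left, which was higher. ADE12 was higher in both cultures, by log2 0.21 (SE 0.06, limma adjusted p = 0.144). The other 9 lay between log2 -0.14 and 0.02. Between R28P-30B and the libraries labelled R28P-30A, 1 gene was higher (ADE12) and 3 were lower (ADE2, ADE17 and IMD3), where 5.98% and 6.24% of all genes were higher and lower. The comparisons share cultures with each other.

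**Figure D2:**
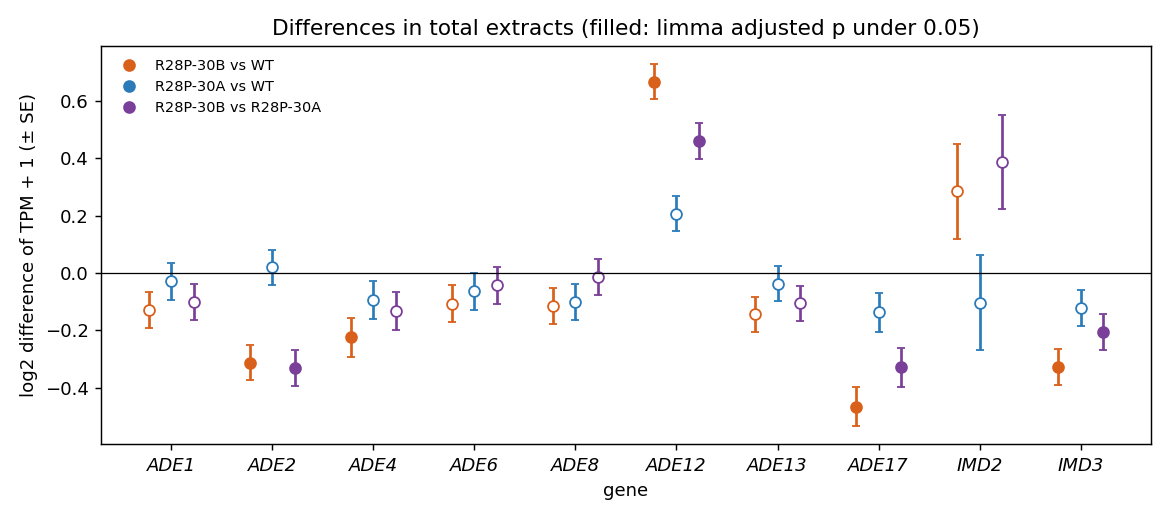
Log2 difference of TPM + 1 in total extracts with its SE for the 10 genes in 3 comparisons, with filled points where the limma adjusted p was under 0.05. ADE12 has the only filled points above 0, at 0.67 and 0.46, and the bars of IMD2 are the widest.

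The translation index of a gene is its heavy CPM (reads scaled to library size) divided by its light CPM within a culture. It sets mRNA on heavy polysomes against mRNA with monosomes and subunits, and polysomes of fewer than 4 ribosomes were in neither fraction. The 10 genes spread widely on this scale in WT, from 0.531 ± 0.0440 for ADE13 and 0.574 ± 0.0119 for ADE1 to 1.36 ± 0.0881 for IMD3 (SD, n = 2). ADE2 was at 0.613 ± 0.0217 and ADE17 at 0.674 ± 0.0339. ADE6, ADE8 and ADE12 followed at 0.822 ± 0.171, 0.822 ± 0.0286 and 0.869 ± 0.00631, and ADE4 at 0.949 ± 0.0292. IMD2 was at 0.982 and 1.02 in its cultures. The WT cultures of ADE13 (0.50 and 0.562) lay just below those of ADE1 (0.566 and 0.582), and the SDs of these means met. ADE6 could not be placed among ADE8, ADE12 and ADE4, as its own cultures were at 0.943 and 0.701.

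Paralogs with related coding sequences differed in this index. IMD2, IMD3 and IMD4 encode IMP dehydrogenases, and IMD4 carries an intron. In WT the index of IMD4 was 0.421 ± 0.0214 (SD, n = 2), against 1.36 for IMD3. ADE16, the paralog of ADE17, was at 2.15 ± 0.0373 against 0.674. The first 60 coding bases of IMD2 beside IMD3 and of ADE17 beside ADE16 are printed to show how close the pairs are, with capitals where a base differs from the first gene of its pair, position by position. They were read at chrVIII:554396-554455 (IMD2), chrXII:1002557-1002616 (IMD3), chrXIII:509221-509280 (ADE17, minus strand) and chrXII:201256-201315 (ADE16, minus).
IMD2: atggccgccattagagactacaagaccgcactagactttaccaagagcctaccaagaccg
IMD3: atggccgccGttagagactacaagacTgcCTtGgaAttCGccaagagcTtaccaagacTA
ADE17: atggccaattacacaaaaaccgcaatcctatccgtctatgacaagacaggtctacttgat
ADE16: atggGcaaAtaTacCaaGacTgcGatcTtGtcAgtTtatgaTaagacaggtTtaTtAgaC
Over the aligned coding sequences IMD2 and IMD3 were 89.1% identical, IMD3 and IMD4 83.9%, IMD2 and IMD4 81.1%, and ADE17 and ADE16 75.5%. Of all 50-base stretches of IMD2, 8.01% occurred in IMD3, and 7.03% of those of IMD3 occurred in IMD4. None of those of ADE17 occurred in ADE16. Every valid position of a read was kept at alignment. If such reads were also counted at each position, the IMD values are uncertain by the shared stretches. IMD2 is the more exposed of that pair, at 33.1 TPM on average in WT total extracts against 299 for IMD3.

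**Figure D3:**
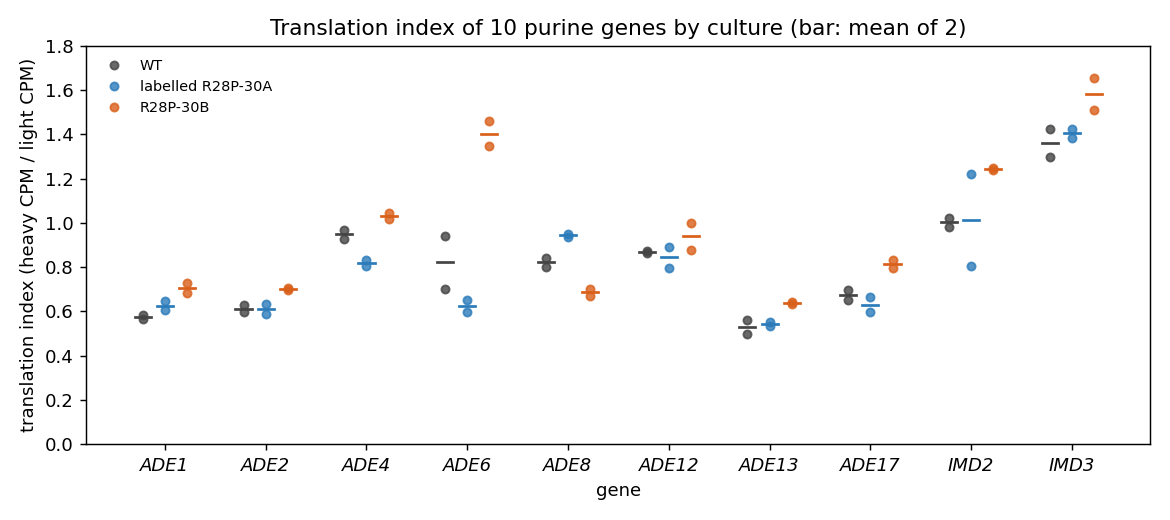
Translation index (heavy CPM over light CPM) of the 10 genes, with 1 point per culture and a bar at the mean of 2. ADE6 is at 1.35 and 1.46 in R28P-30B, above all 4 other cultures, and ADE8 is lowest in R28P-30B.

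In R28P-30B the index of 4 genes rose against WT (ADE1, ADE6, ADE13 and ADE17) and that of ADE8 fell, where 12.4% of all 5664 genes tested were higher and 10.2% lower. The test was limma on the log2 index, with a trend of the spread on the mean CPM. ADE6 was the one call of these 5 that every alternative kept. With no trend, or with the trend on the mean log2 index, only ADE6 of the 10 passed, and the same held when either WT culture or either R28P-30B culture was left out. The trend on the mean CPM was settled after the counts under these 3 settings had been seen.

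ADE6, the longest of the 10 genes at 4077 coding nt, had an index of 0.943 and 0.701 in WT, 0.597 and 0.652 in the libraries labelled R28P-30A, and 1.35 and 1.46 in R28P-30B. The 3 strains did not overlap. R28P-30B exceeded WT 1.73-fold (log2 0.79, SE 0.12, limma adjusted p = 0.000235), and the difference lay between 0.57 and 1.001 over the alternatives. It exceeded the libraries labelled R28P-30A 2.25-fold (log2 1.17, SE 0.12, adjusted p = 3.85e-07).

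ADE8, the shortest at 645 coding nt, went the other way. Its index was 0.802 and 0.842 in WT, 0.951 and 0.937 in the libraries labelled R28P-30A, and 0.702 and 0.672 in R28P-30B, again with no overlap between strains. The difference between R28P-30B and WT was log2 -0.26 (SE 0.09, limma adjusted p = 0.0458), called in 9 of 17 alternatives. Against the libraries labelled R28P-30A it was -0.46 (SE 0.09, adjusted p = 0.000418), called in all 17.

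The other 3 calls against WT were smaller. ADE1 rose by log2 0.30 (SE 0.09, limma adjusted p = 0.0221), from 0.566 and 0.582 to 0.684 and 0.727. ADE17 rose by 0.27 (SE 0.09, adjusted p = 0.0392), from 0.650 and 0.698 to 0.797 and 0.831. ADE13 rose by 0.27 (SE 0.09, adjusted p = 0.0413), from 0.50 and 0.562 to 0.632 and 0.644. ADE2, ADE4, ADE12, IMD2 and IMD3 had differences of log2 0.11 to 0.31 with limma adjusted p of 0.0901 to 0.417, and were not called. Called or not, none of the 10 genes had overlapping index values between the cultures of R28P-30B and WT. The share of such genes over all genes was not counted. The median of the 10 was log2 0.24, against -0.04 over all genes.

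In the libraries labelled R28P-30A the index of ADE6 was lower than in WT, with a log2 difference of -0.38 (SE 0.12, limma adjusted p = 0.0188), and 0 of the 10 genes were higher. Over all genes 5.56% were higher and 25.3% lower, and the median gene stood at -0.13, above ADE6. Among genes with more than 3000 coding nt the median was -0.55, below ADE6. The ADE6 call did not survive centring on the median gene, where 2 genes, ADE1 and ADE8, were called higher instead. edgeR and DESeq2 called the same 2. Scaling without ribosomal protein genes called ADE8 alone (ADE6 limma adjusted p = 0.0599). The ADE6 call was also lost with no trend, with the trend on the mean log2 index, and without replicate 1 of WT or of these libraries (0 called in each). Centring also moved the share of higher calls over all genes from 18.03% to 58.7%, and the scaling without ribosomal protein genes moved it to 34.1%.

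Between R28P-30B and the libraries labelled R28P-30A, ADE4, ADE6, ADE13 and ADE17 were higher and ADE8 was lower, where 30.7% and 15.4% of all genes were higher and lower. ADE17 differed by log2 0.37 (SE 0.09, limma adjusted p = 0.00289), ADE4 by 0.33 (SE 0.09, adjusted p = 0.00455) and ADE13 by 0.23 (SE 0.09, adjusted p = 0.0426). ADE4 went from 0.832 and 0.807 to 1.02 and 1.05. Centred on the median gene, as by edgeR and DESeq2, only ADE6 and ADE8 were called, and centring moved the share of higher calls over all genes from 66.6% to 39.2%. It was 52.6% with ribosomal protein genes left out of the scaling.

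The index can change through either fraction, so each was set against the total extract of the same culture. For the 10 genes the heavy CPM stayed at 0.737 to 1.06 times the total CPM in every culture of every strain. The light CPM ranged more widely, from 0.559 to 1.61 times. ADE6 showed it most: its light CPM was 0.797 and 1.18 times total in WT, 1.29 and 1.17 in the libraries labelled R28P-30A, and 0.568 and 0.559 in R28P-30B. Its heavy CPM was 0.751 and 0.827 times total in WT, 0.771 and 0.766 in the libraries labelled R28P-30A, and 0.764 and 0.817 in R28P-30B, where the strains overlapped. Between R28P-30B and WT, the mean log2 CPM of ADE6 differed by -0.89 in the light fraction, -0.10 in the heavy fraction and -0.11 in the total extract. The ADE6 light libraries of WT differed from each other, at 516 and 729 CPM.

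ADE8 had a light CPM of 1.17 and 1.15 times total in WT, 0.944 and 1.05 in the libraries labelled R28P-30A, and 1.51 and 1.43 in R28P-30B. Its heavy CPM stayed at 0.897 to 1.06 times total, with overlap. ADE13 had a light CPM of 1.51 and 1.43 times total in WT and 1.25 and 1.26 in R28P-30B, while its heavy ratios to total overlapped between these strains. The ratios to total were not tested gene by gene.

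**Figure D4:**
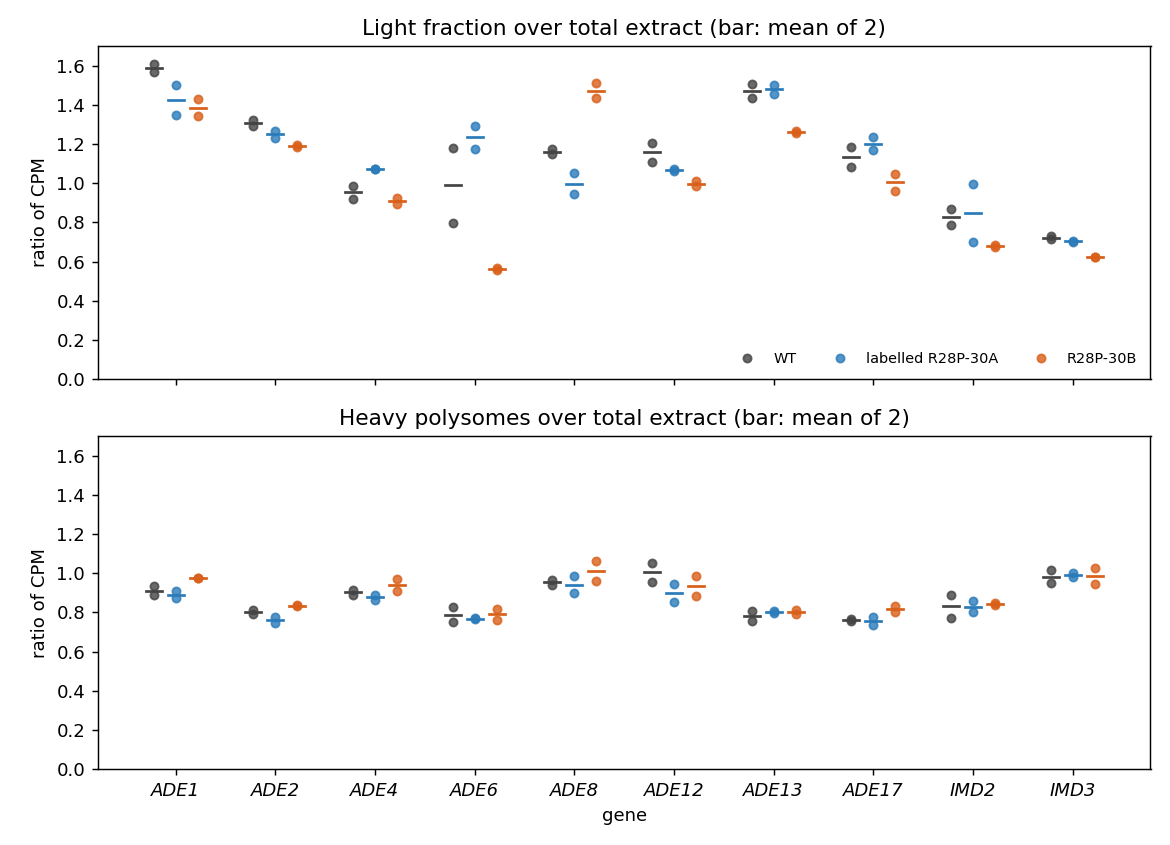
CPM in the light fraction (top) and in the heavy polysome fraction (bottom) over CPM in the total extract of the same culture, for the 10 genes, with 1 point per culture and a bar at the mean of 2. Light ratios run from 0.559 to 1.61, and R28P-30B has the lowest ADE6 and the highest ADE8 ratios of the 3 strains, whereas heavy ratios stay between 0.737 and 1.06.

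ADE12 kept its higher level in every preparation of R28P-30B. Its light CPM was 258 and 271 in WT and 368 and 358 in R28P-30B, and its heavy CPM was 223 and 237 in WT and 323 and 358 in R28P-30B. Neither fraction overlapped between the strains. Its index did not pass the test in any comparison (log2 0.11, SE 0.09, limma adjusted p = 0.417 against WT).

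The index differences went with coding length, over all genes and over the 10. Between R28P-30B and the libraries labelled R28P-30A, Pearson's r with log2 coding length was 0.94 over the 10 genes and 0.60 over 5664. Against WT it was 0.87 and 0.52 in R28P-30B, and -0.89 and -0.37 in the libraries labelled R28P-30A. These are descriptions across genes of the same libraries. Without ADE6 and ADE8, at the ends of the length range, r over the other 8 was 0.54 between R28P-30B and the libraries labelled R28P-30A and -0.56 between the latter and WT, but -0.13 between R28P-30B and WT. Among all 480 genes with more than 3000 coding nt the median log2 difference between R28P-30B and WT was 0.35, against 0.79 for ADE6. In the same genes it was -0.55 between the libraries labelled R28P-30A and WT, against -0.38 for ADE6. Between R28P-30B and those libraries it was 0.89, against 1.17. Among the 1940 genes of up to 900 coding nt the median was -0.18 between R28P-30B and WT, against -0.26 for ADE8. It was -0.02 and -0.19 in the other comparisons, in the same order, against 0.20 and -0.46 for ADE8.

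**Figure D5:**
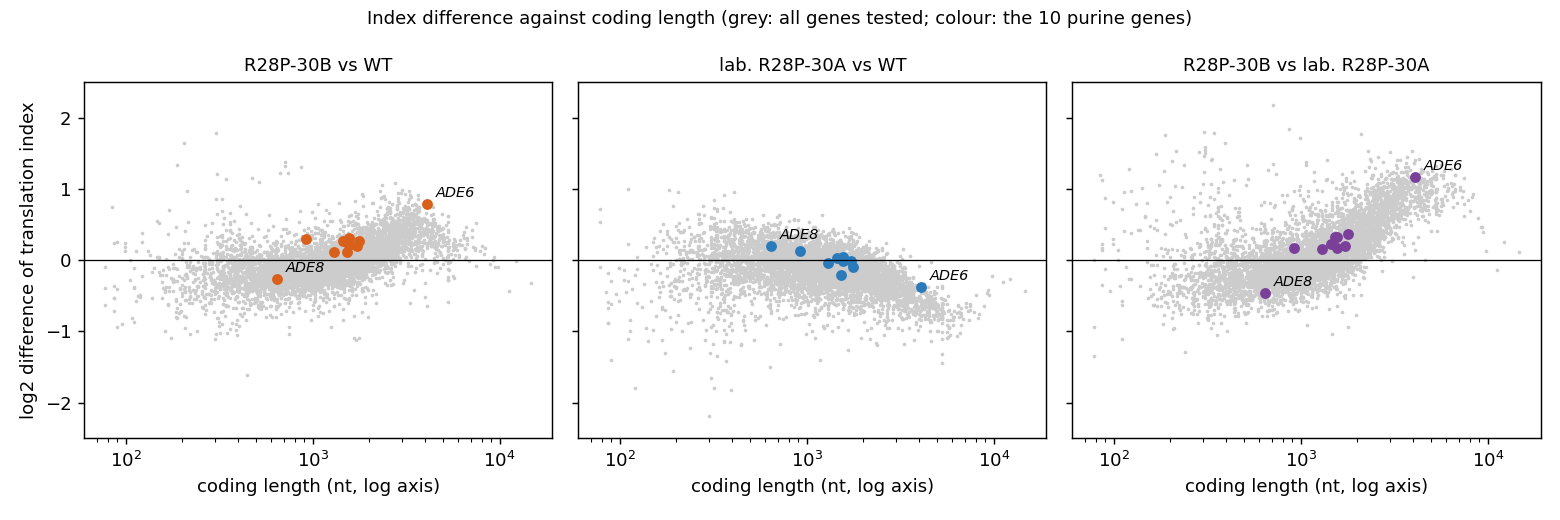
Log2 difference of the translation index against coding length (nt, log axis) in 3 comparisons, with all genes tested in grey and the 10 genes in colour. ADE6, at 4077 nt, lies at 0.79, -0.38 and 1.17 from left to right, and ADE8, at 645 nt, lies at -0.26, 0.20 and -0.46.

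The rest of the pathway was read from lists of related genes. Other enzymes leading to GMP were ADE3, ADE5,7, ADE16, IMD4 and GUA1, listed with PRS1 to PRS5, which make phosphoribosyl pyrophosphate. Over all genes tested in total extracts, 10.7% were higher and 13.5% lower between R28P-30B and WT. The shares were 0.879% and 0.193% between the libraries labelled R28P-30A and WT, and 5.98% and 6.24% between R28P-30B and those libraries. IMD1, also listed, had no TPM and was not tested. Of the other 10 genes, 0 differed in total extracts in any comparison by limma, edgeR or DESeq2. At an unadjusted p under 0.05, limma had 2 of them (ADE5,7 and ADE16) between R28P-30B and WT, 0 between the libraries labelled R28P-30A and WT, and 1 (IMD4) between R28P-30B and the libraries labelled R28P-30A. In the index of R28P-30B against WT 5 of these 10 were higher, where 12.4% of all genes were: ADE3 (log2 0.66), ADE5,7 (0.53), GUA1 (0.27), IMD4 (0.26) and ADE16 (0.25). None was lower. edgeR called 4, without IMD4, DESeq2 called ADE3, ADE5,7 and GUA1, and only ADE3 and ADE5,7 passed with no trend or with the trend on the mean log2 index. In the index of the libraries labelled R28P-30A 0 of 10 differed from WT by limma, where 5.56% of all genes were higher and 25.3% lower. At an unadjusted p under 0.05 limma had 2. edgeR called 3 of the 10 and DESeq2 4, against 1478 and 1169 of all 5664 genes. Between R28P-30B and the libraries labelled R28P-30A, ADE3 (0.71), IMD4 (0.45) and ADE5,7 (0.39) were higher. PRS4, a phosphoribosyl pyrophosphate synthetase, was lower (-0.23). Over all genes 30.7% were higher and 15.4% lower in this comparison. With centring, edgeR or DESeq2 ADE5,7 was not called, and with the other trends PRS4 was not.

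Among 17 genes of purine salvage and interconversion, 2 were higher and 3 lower in total extracts of R28P-30B than of WT, shares near the 10.7% and 13.5% over all genes. The adenylate kinase ADK1 and the nucleoside diphosphate kinase YNK1 were higher by log2 0.22 each, and with no trend neither passed. FCY22 (-0.50) and FCY21 (-0.48), relatives of the purine permease FCY2 whose reads the counting could share, and the mitochondrial kinase ADK2 (-0.49) were lower. FCY22 was not called with centring. FCY21 (-0.46) and ADK2 (-0.44) were also lower than in the libraries labelled R28P-30A. In the index against WT, R28P-30B was higher for AMP deaminase AMD1 (0.41) and lower for ADK2 (-0.43) and GUK1 (-0.29), and both of the latter were lost with the other trends, ADK2 also by DESeq2. Over all genes 12.4% were higher and 10.2% lower in that comparison. The libraries labelled R28P-30A were higher than WT for ADO1 (0.54), an adenosine kinase, and the phosphorylase PNP1 (0.33), and lower for AMD1 (-0.27). Here 5.56% of all genes were higher and 25.3% lower. AMD1 was not called there by edgeR or DESeq2, with centring or with the other trends. By edgeR and DESeq2, 7 and 6 of the 17 genes were higher, ADO1 and PNP1 among them, against 866 and 744 of all 5664 genes. Set against the libraries labelled R28P-30A, AMD1 (0.67) and FCY21 (0.32) were higher in R28P-30B, and 7 genes were lower, from GUK1 (-0.49) and ADO1 (-0.43) through ADK2 (-0.34), ADK1 (-0.33), XPT1 (-0.33) and YNK1 (-0.32) to PNP1 (-0.28). In this comparison 30.7% of all genes were higher and 15.4% lower. FCY21 was not called in it with centring or by edgeR or DESeq2, and ADK2 and YNK1 were not with the other trends.

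One-carbon units and glycine feed the ring. In total extracts of R28P-30B, 3 of 7 genes were lower than in WT, where 13.5% of all genes were, and 0 were higher: the glycine cleavage subunits GCV3 (log2 -0.37) and GCV1 (-0.19), and the hydroxymethyltransferase SHM2 (-0.24). edgeR called GCV3 alone and DESeq2 called GCV3 and SHM2. In the index MIS1 (0.64), GCV2 (0.53) and MTD1 (0.31) were higher in R28P-30B than in WT, as were 12.4% of all genes. MTD1 was not called with the other trends. The libraries labelled R28P-30A were higher than WT for GCV3 (0.46) by limma, against 5.56% of all genes. To this edgeR and DESeq2 added GCV1 and SHM1. Between these libraries and R28P-30B, MIS1 (0.85), GCV2 (0.69) and MTD1 (0.24) were higher and GCV3 (-0.56) lower, against 30.7% and 15.4% of all genes. MTD1 was lost with the other trends, with centring and by edgeR and DESeq2.

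Histidine synthesis releases AICAR, the substrate of Ade17. In total extracts of R28P-30B, 3 of 5 HIS genes were higher than in WT, where 10.7% of all genes were: HIS4 (log2 0.72), HIS5 (0.30) and HIS1 (0.29). HIS6 (-0.44) was lower, and edgeR and DESeq2 called all 5, with HIS7. HIS4 (0.46), HIS1 (0.23) and HIS6 (-0.39) also differed from the libraries labelled R28P-30A, HIS1 not with no trend. In the index HIS4 was higher in R28P-30B than in WT (0.48), a call lost with no trend, while in the libraries labelled R28P-30A it rose for HIS5 (0.34) and HIS1 (0.30), the latter not with no trend. Set against the libraries labelled R28P-30A, HIS4 (0.34) and HIS7 (0.29) were higher and HIS1 (-0.53) lower in R28P-30B. Among all genes 30.7% were higher and 15.4% lower. Of these HIS calls, edgeR, DESeq2 and the fits with centring or another trend kept HIS1 alone. edgeR, DESeq2 and centring called HIS5 in addition. Of the regulators, 0 of 3 (BAS1, PHO2 and GCN4) were called in total extracts by limma, edgeR or DESeq2 in any comparison. At an unadjusted p under 0.05 limma had 0 of them. Among all genes limma called at most 10.7% higher and 13.5% lower in any of these comparisons. The index of BAS1 was higher in R28P-30B, by log2 0.64 against WT and 0.86 against the libraries labelled R28P-30A. Over all genes 12.4% and 30.7% were higher in these comparisons. The index of PHO2 was lower in the libraries labelled R28P-30A than in WT (-0.30) by limma, as were 25.3% of all genes. edgeR, DESeq2, centring and the other trends did not keep this PHO2 call.

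Likeness was read as Pearson's r of log2(CPM + 0.1) over the 18 libraries, after the mean of each preparation was removed, among 5186 other genes above 10 TPM. The genes most like the mean of the 8 ADE genes were SUP35 (0.96), SEC26 (0.95), RPG1 (0.95), TSR1 (0.95) and DBP2 (0.95). The ADE genes themselves were not alike: ADE4 (0.94), ADE13 (0.92), ADE17 (0.91), ADE6 (0.89), ADE1 (0.87) and ADE2 (0.86) went with this mean, to which each contributes, while ADE8 (-0.50) and ADE12 (-0.58) went against it. IMD3 was at 0.89 and IMD2 at 0.05. The genes most like IMD2 were COS8 (0.84), MCH5 (0.80), YOR338W (0.75), TAT1 (0.72) and YNL024C (0.72).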

How the data were processed

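RNA of WT, R28P-30A and R28P-30B was re-analysed from deposited values, with samples grouped by the strain, preparation and replicate number in their labels. The tables' columns name the plasmid strains by a code ending in A or B, and were matched to R28P-30A and R28P-30B by that letter, the preparation and the replicate number. Libraries were directional and made from poly(A) RNA by the authors, whose notes name STAR, featureCounts and the build R64 (versions not given in the sources used here); every valid position of a read was kept. CPM of 7126 genes was deposited by the authors over 18 libraries, and TPM over 16. The deposited TPM of the 10 genes was 0.00587 to 0.0397 times the TPM recomputed here, which was used instead. In every library 100% of CPM values lay within 0.05 of a whole read, so reads were recovered (whole reads, median 26575904 per library). TPM was computed from reads and coding length (6013 genes; genes without one held at most 0.47% of reads).

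limma 3.58.1 (R 4.3.3) was fitted on log2(TPM + 1) of 6 total extracts, for genes with a mean above 1 TPM, and on log2 of (heavy CPM + 0.1) over (light CPM + 0.1) per culture, for genes above 1 TPM in WT total extracts and above 0 CPM in 12 polysome libraries. The 3 strains shared 1 fit, with a trend of the spread on abundance and no block. For the index, the planned test named a trend without its covariate. The mean log2 CPM was chosen after the counts with no trend, with a trend on the mean log2 index and with a trend on the mean log2 CPM had been seen, and the other settings are reported as alternatives. A call was an adjusted p (Benjamini-Hochberg, all genes) under 0.05. edgeR 4.0.16 and DESeq2 1.42.0 on recovered reads, other pseudocounts, filters and scalings, a replicate block, fits of 2 strains, a rule of log2 0.5 and leaving out each culture were alternatives.

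Replicate numbers are shared by the strains. Differences between replicates correlated between strains at 0.117 to 0.157 in total extracts and at -0.167, 0.106 and 0.149 in the index, across genes, and with 2 numbers this does not show pairing.

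All 10 genes are named. From the related lists, genes called in at least 1 comparison of total extracts or index are named. The members and lists were chosen with earlier results of these data known. Sequences come from the R64 reference. Tables and plots used Python 3.11.15 with numpy 2.4.6, pandas 2.3.3, matplotlib 3.10.9 and scipy 1.17.1.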

Additional observations from a re-analysis of the deposited data

Results flagged for a closer look

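For 6 genes the difference between strains was not the same in the heavy and the light fraction in at least 1 comparison. The test was limma on the log2 index, which tests that difference itself. Of all 5664 genes it called 1283 between R28P-30B and WT. It called 1747 between the libraries labelled R28P-30A and WT, and 2609 between R28P-30B and those libraries. The heavy minus light difference (log2) between R28P-30B and WT was 0.787 for ADE6, 0.296 for ADE1, 0.274 for ADE17, 0.267 for ADE13 and -0.259 for ADE8. Between the libraries labelled R28P-30A and WT it was -0.381 for ADE6. Between R28P-30B and the libraries labelled R28P-30A it was 1.17 for ADE6, 0.371 for ADE17, 0.332 for ADE4, 0.233 for ADE13 and -0.459 for ADE8. With no trend or the trend on the mean log2 index, only ADE6 stayed called between R28P-30B and WT. With centring, edgeR or DESeq2, only ADE6 and ADE8 stayed between R28P-30B and the libraries labelled R28P-30A. The ADE6 call between those libraries and WT was lost in all of these settings. In the light fraction alone, ADE6 differed by log2 -0.89 between R28P-30B and WT and by -1.17 between R28P-30B and the libraries labelled R28P-30A, and ADE8 by 0.22 and 0.55. In the heavy fraction the same values were -0.10 and -0.01 for ADE6 and -0.03 and 0.09 for ADE8. With 2 cultures per strain, no single culture could be tested for standing apart from its group.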

How the results depend on the processing

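In total extracts, ADE2, ADE12, ADE17 and IMD3 against WT and ADE2, ADE12 and ADE17 against the libraries labelled R28P-30A were called for R28P-30B in each of 16 alternatives with a p-value. In the index the same held in 17 alternatives for ADE6 in both comparisons of R28P-30B and for ADE8 against the libraries labelled R28P-30A. No called direction turned. Over all single-gene values under alternatives, 908 kept their direction and side of the threshold, 63 lost a call and 19 gained one.

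A rule of log2 0.5 in place of the test called 1 of the 10 genes in total extracts and 1 in the index between R28P-30B and WT. Over all genes it called 359 of 5686 and 488 of 5664. Between R28P-30B and the libraries labelled R28P-30A it called 0 and 1 of the 10, against 195 and 1397 over all genes. In the index between the latter and WT it called 0 of the 10, against 725 over all genes. With no trend, or with the trend on the mean log2 index (added after the data were seen), the index called 1 gene between R28P-30B and WT and 0 between WT and the libraries labelled R28P-30A, with 716 and 781 genes over the whole table against 1283 for R28P-30B. The cause was not tested. Centring on the median gene, edgeR and DESeq2 each called 2 genes in the index between WT and the libraries labelled R28P-30A, and 2 between these and R28P-30B. In total extracts DESeq2 called 1 between these and WT.

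Leaving out each culture gave 4 to 6 (R28P-30B against WT), 0 to 1 (the libraries labelled R28P-30A against WT) and 3 to 4 (R28P-30B against these) genes called in total extracts, and 1 to 6, 0 to 1 and 4 to 6 in the index. The replicate numbers were not shown to pair the samples. With the replicate block 5, 0 and 4 of the 10 genes were called in total extracts and 4, 1 and 5 in the index, in the same order. Over all genes, the 61 calls in total extracts between WT and the libraries labelled R28P-30A became 126 with the block, 141 with those strains alone, 33 without ribosomal protein genes in the scaling, 23 by edgeR, 6 with no filter, 3 with no trend and 1 with centring, and the 695 between R28P-30B and these became 1074 with the block and 444 with no trend. Leaving out 1 culture brought them to as few as 735 of 1377 (total extracts) and 384 of 1283 (index) for R28P-30B against WT, both without replicate 2 of WT. The 61 became 2 or 1 without a WT culture, 223 without replicate 1 of the libraries labelled R28P-30A, and 148 or 144 without a R28P-30B culture, and the 695 became 358 without replicate 2 of R28P-30B. All 30 mean levels of the 10 genes moved by over 1 SD with the deposited TPM. For R28P-30B against WT, the calls of ADE4 in total extracts and of ADE1, ADE8, ADE13 and ADE17 in the index were each lost in 6 to 8 alternatives.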

Other observations

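URA1, URA2, URA4, URA5, URA8 and URA10, which make pyrimidine nucleotides, were looked at after their values had been seen. In total extracts, the mean log2 CPM of R28P-30B differed from that of WT by -1.34 for URA1, -0.60 for URA4, -0.31 for URA8, -0.19 for URA2, -0.06 for URA5 and 0.13 for URA10, with no test. URA2 had a light CPM of 0.659 and 0.899 times its total CPM in WT, 1.49 and 1.11 in the libraries labelled R28P-30A, and 0.548 and 0.568 in R28P-30B, while its heavy CPM stayed at 0.778 to 0.818 times total.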
